A study of Mus musculus with 18 samples.

Results

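RNA levels were compared between tail tendon fibroblasts (TFs) labelled cKO and Ctrl that had been kept in 20% O2, with an emphasis on autosomal genes of the extracellular matrix (ECM), of bone morphogenetic protein (BMP) signalling and of fibroblast identity. The comparison used 6 of the 18 libraries of the series, chosen by their sample titles alone: Ctrl replicates 1 to 3 and cKO replicates 1 to 3 in 20% O2. The labels call the cKO genotype *Hif1a* knockout and the Ctrl genotype wild-type, whereas the methods of the study describe Cre-negative mice with floxed *Hif1a* as the source of Ctrl TFs. Both genotypes were on a mixed C57BL6J/129S1 background. In cKO mice, Cre recombinase was made under the control of *Scx* (scleraxis), so *Hif1a* is deleted in cells with a history of *Scx* expression, and cells of other lineages in the culture would keep the gene. TFs crawled out of tail tendons of male and female mice, 4 to 6 months old, were passaged, and were held for 4 days in 20% O2 before poly-A RNA was sequenced. Values from the matching libraries in 1% O2 (3 Ctrl and 3 cKO) and from Ctrl TFs given Cre through gesicles, vesicles loaded with the recombinase, in 20% O2 (3 libraries) stand beside the results where they bear on them.

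HIF-1α, the product of *Hif1a*, is a transcription factor that is broken down in the presence of O2 and accumulates in hypoxia, where it binds DNA at the short core motif ACGTG. BMP ligands bind paired type I and type II receptors, which phosphorylate SMAD1, SMAD5 and SMAD9. These join SMAD4 in the nucleus and switch on early target genes, among them the *Id* genes, *Atoh8*, and the inhibitory SMADs *Smad6* and *Smad7*, which dampen the same pathway. Secreted antagonists such as noggin and chordin hold the ligands outside the cell. In tendon, BMP signalling is best known at the attachment to bone. Small leucine-rich proteoglycans (SLRPs) such as decorin and lumican coat collagen fibrils and limit their diameter. Fibroblasts of tendon and its sheath are told apart by transcription factors such as *Scx* and *Mkx* and by surface markers such as *Pi16* and *Dpp4*.

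*Atoh8*, a BMP-responsive transcription factor of the bHLH family, and *Smad6*, an inhibitory SMAD, had the lowest log2 fold changes of the BMP-SMAD target genes. Of the 4 target genes called, only these have their promoters shown, so the windows do not stand for all called targets. Each run covers 250 bases before to 50 bases after the start of the gene in RefSeq's annotation of GRCm38.p6, on the strand of the gene. Capitals mark matches, on either strand, to ACGTG, the core of the HIF-1 motif, and to CAGCTG, an E-box of the kind bHLH factors bind.
*Atoh8*, minus strand of chr6:72235528-72235827: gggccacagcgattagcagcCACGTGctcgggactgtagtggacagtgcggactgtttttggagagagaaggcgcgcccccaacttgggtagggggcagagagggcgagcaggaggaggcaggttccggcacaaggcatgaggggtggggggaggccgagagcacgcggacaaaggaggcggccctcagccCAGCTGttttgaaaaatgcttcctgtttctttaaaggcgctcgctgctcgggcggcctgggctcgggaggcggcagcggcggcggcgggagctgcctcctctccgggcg
*Smad6*, minus strand of chr9:64022010-64022309: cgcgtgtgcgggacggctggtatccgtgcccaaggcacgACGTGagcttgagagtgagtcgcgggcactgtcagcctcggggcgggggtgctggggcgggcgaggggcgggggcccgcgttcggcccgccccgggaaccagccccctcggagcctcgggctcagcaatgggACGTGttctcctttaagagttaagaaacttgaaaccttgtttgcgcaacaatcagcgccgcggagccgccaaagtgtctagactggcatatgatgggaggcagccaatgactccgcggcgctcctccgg
The *Atoh8* window had 2 overlapping matches to ACGTG, 1 on each strand, at -230 to -226 and at -229 to -225 from the start, and 1 match to CAGCTG at -59 to -54. The *Smad6* window had matches to ACGTG at -211 to -207 and at -79 to -75. Neither held GGCGCC, a GC-rich element bound by BMP SMADs, or CATCTG, another E-box. Among 32851 promoter windows of this length, 19.6% held ACGTG, 16.3% CAGCTG, 11.9% GGCGCC and 17.2% CATCTG. Of the 26 BMP-SMAD target genes listed, 15 had a promoter entry, and GGCGCC was present in at least 1 window of 7 of these. This count is by gene, and a gene can have several windows. It is therefore not on the same scale as the share of single windows. *Id1* had no entry. A match describes letters in a window and is no evidence of binding.

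Library totals in 20% O2 were 32579711 to 37298897 counts for Ctrl and 26967440 to 42964226 for cKO, which put the smallest level that 3 counts can show at 0.0698 to 0.111 CPM (counts scaled to 1000000 per library). Levels are CPM normalized with edgeR's TMM factors and are listed for replicates 1 to 3. *Hif1a* (ENSMUSG00000021109, chr12:73901375-73947530) was at 337, 344 and 374 CPM in Ctrl and 404, 298 and 435 CPM in cKO TFs, a log2 fold change of 0.11 with SE 0.16 (edgeR adjusted p = 0.757). The count over the whole gene does not single out the floxed exon, so this level does not settle whether the gene was deleted. By quantitative PCR, the study reported lower *Hif1a* in cultured TFs from cKO mice, at a later day than these libraries. Cre transcripts were at 1, 5 and 4 counts in the cKO libraries and at 0 in each Ctrl library. Genotypes are named here as labelled. *Xist*, which marks female cells, was at 0 CPM in Ctrl replicate 1 and cKO replicates 2 and 3 and at 20.5 to 23.7 CPM in the other 3 libraries, so the sexes were split unevenly between the genotypes. The library labelled cKO replicate 2 stood apart in transcript length. In it, the median deviation from the mean of the 6 libraries was lower by 0.69 on the log2 scale for genes with over 6000 exonic bases than for those with under 2000 bases (-0.69, against 0.0 to 0.21 in the other 5 libraries), and its share of mitochondrial counts was 1.02% against 0.365% to 0.58%. Over all genes tested, the median log2 fold change between cKO and Ctrl was 0.03, but it was -0.17 for the 4384 long genes and 0.28 for the 3333 short ones. The part of transcript length in the results on long genes was not tested beyond the values given beside them.

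Genes are named as called where edgeR's quasi-likelihood test gave an adjusted p-value below 0.05 and the change was 1.5-fold or more. Of 15850 genes tested, 55 were called (0.347%). On the autosomes, 20 of 15262 were higher in cKO TFs (0.131%) and 32 were lower (0.21%), and the other 3 called genes were on the X chromosome. The number called turned on single libraries: it was 1 without Ctrl replicate 1 or without cKO replicate 3, with *Atoh8* the gene in both cases, 10 without Ctrl replicate 3, 28 without cKO replicate 2, 42 without Ctrl replicate 2 and 154 without cKO replicate 1. The 55 calls also came from a fit of 12 libraries, in which those in 1% O2 shared in the estimate of the spread. A fit of the 6 libraries in 20% O2 alone called 1 gene, *Dhrs9*. DESeq2 called 443 genes with the same thresholds, 162 higher (1.02%) and 281 lower (1.77%). At an unadjusted p under 0.05, 1025 genes were higher (6.47%) and 1239 lower (7.82%). Ctrl and cKO values did not overlap for 1598 genes that were higher in cKO (10.1%) and 1741 that were lower (11.0%). In bulk RNA, fewer cells of a type and less RNA per cell cannot be told apart, which holds for every level given here.

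Of 65 genes of BMP signalling tested, 5 were called, all lower in cKO TFs (7.69%), among them the targets *Atoh8*, *Smad6*, *Smad7* and *Id1*. Of 163 matrix genes, 4 were called, all higher (2.45%): *Dcn*, *Lum*, *Fap* and *Mmp2*. Of 117 identity genes, 4 were called higher and 1 lower (4.27%): *Pi16*, *Dpp4*, *Osr2* and *Fap* (also counted with the matrix genes), and *Lmod1*. The median log2 fold changes of these 3 themes were -0.21, -0.12 and -0.03. The lists were chosen with earlier results of these data known. Shares of their members, here and below, are therefore descriptions and no test of a list. The plot of log2 fold changes by list shows where the called genes sit among the members that were not called.

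**Figure D1:**
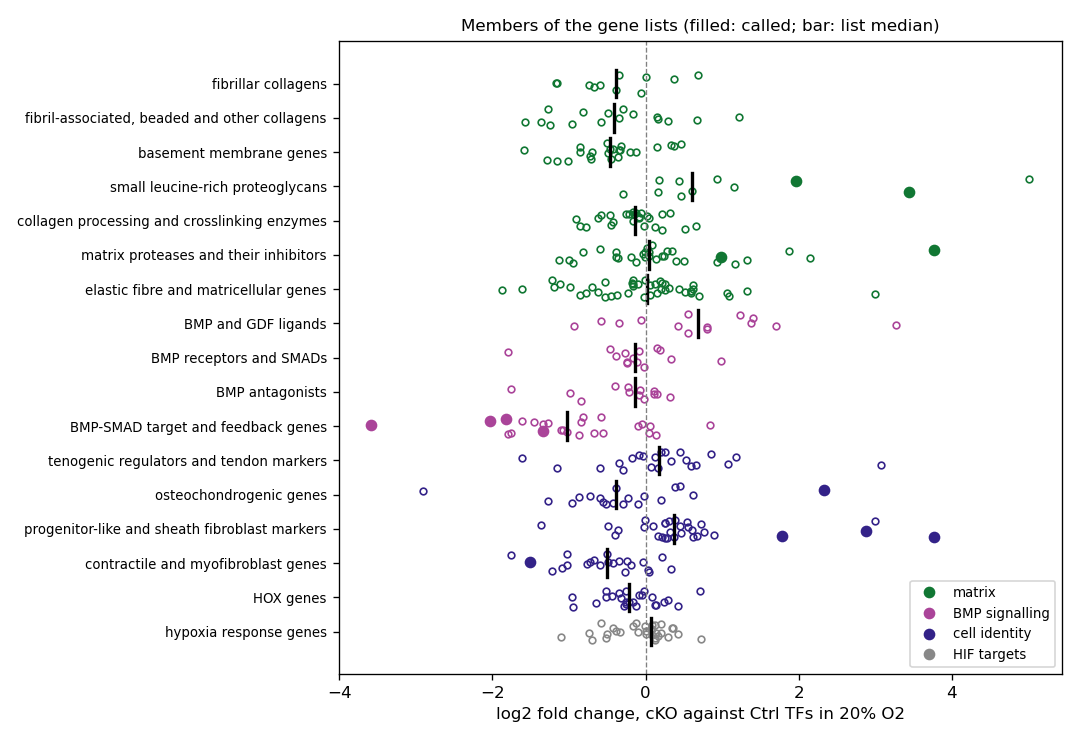
Log2 fold change between cKO and Ctrl TFs in 20% O2 (x axis, positive where cKO was higher) for tested members of 17 gene lists (y axis). Filled points are called genes, open points are not called, the short bar is the median of the list and the dashed line marks 0. The BMP-SMAD targets lie mostly left of 0, with a median of -1.02, and the SLRPs mostly right of it, with a median of 0.61.

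The transcriptional targets of BMP-SMAD signalling were the list with the lowest median. Of the 25 tested, 4 were called lower and 0 higher, and the median log2 fold change was -1.02 against 0.03 over all genes tested. The cKO values lay entirely below the Ctrl values for 17 of the 25, against 11.0% of all genes. As the members were chosen with earlier results known, this share is no test of the list. At an unadjusted p under 0.05, 16 were lower and 1 was higher, and DESeq2 called 12 lower and 0 higher. The median was -0.97 without cKO replicate 2 and -0.96 with offsets for transcript length and GC content.

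*Atoh8* (ENSMUSG00000037621, chr6:72206177-72235577), whose promoter is shown above, was at 103, 59.7 and 81.6 CPM in Ctrl and at 6.76, 9.57 and 4.13 CPM in cKO TFs. Every cKO library was far below every Ctrl library. The log2 fold change was -3.58 with SE 0.36 (edgeR adjusted p = 0.00562), the lowest of all called genes, and *Atoh8* was the only called gene that kept its call with each of the 6 libraries left out in turn. Per kilobase of exon, its mean level fell from 32.5 to 2.72 CPM.

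The inhibitory SMADs, which block the type I receptors, fell as well. *Smad6* (ENSMUSG00000036867, chr9:63953076-64022059) was at 104, 72.5 and 105 CPM in Ctrl and 21.2, 28.8 and 19.1 CPM in cKO TFs, a log2 fold change of -2.03 with SE 0.31 (edgeR adjusted p = 0.0233). The groups were well apart, although the call was lost without Ctrl replicate 1, Ctrl replicate 3 or cKO replicate 3. *Smad7* (ENSMUSG00000025880, chr18:75367529-75395935) was at 59.3, 43.3 and 50 CPM in Ctrl and 23.9, 16.2 and 20.4 CPM in cKO TFs, a log2 fold change of -1.34 with SE 0.24 (edgeR adjusted p = 0.0408). Its highest cKO value was still below its lowest Ctrl value, and its call held only without cKO replicate 1 among the libraries left out. The call was also lost with the replicate block and with *Xist* as a covariate. The promoter of *Smad7* is not among those shown, so the windows printed above do not cover this called target.

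The *Id* genes encode helix-loop-helix proteins that sequester bHLH transcription factors and are the classic early BMP targets. *Id1* (ENSMUSG00000042745, chr2:152736251-152737410) was at 51.8, 44.5 and 36.3 CPM in Ctrl and 9.41, 20.0 and 8.15 CPM in cKO TFs, and fell by a log2 fold change of -1.82 with SE 0.34 (edgeR adjusted p = 0.0462). It was highest within cKO in replicate 2, and its call held only without that library among those left out. It was also lost with *Xist* as a covariate. *Id2* was at 37.5, 27.4 and 36.0 CPM in Ctrl and 8.76, 19.5 and 8.43 CPM in cKO TFs, with a log2 fold change of -1.46 (edgeR adjusted p = 0.0906). *Id3* was at 181, 161 and 173 CPM in Ctrl and 63.9, 93.0 and 46.7 CPM in cKO TFs, with a log2 fold change of -1.34 (edgeR adjusted p = 0.0534). Neither passed the test, but for both the groups did not overlap, and DESeq2 called both (adjusted p = 0.00102 for *Id2* and 0.000112 for *Id3*). *Id4*, whose levels overlapped, had a log2 fold change of -1.08 (edgeR adjusted p = 0.366).

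Other targets stood between these and no difference. *Msx2*, a homeobox gene of bone and skin, had a log2 fold change of -0.87 (edgeR adjusted p = 0.138, DESeq2 adjusted p = 0.00713), and *Skil*, *Smurf2* and *Gata2* were at -1.1, -0.82 and -0.67, each called only by DESeq2. *Bambi*, a decoy receptor, was at -0.58, and *Hes1*, shared with Notch signalling, at -0.1. *Tmem100* had the highest value of the list, 0.84. The spread within the list therefore ran from -3.58 to 0.84.

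**Figure D2:**
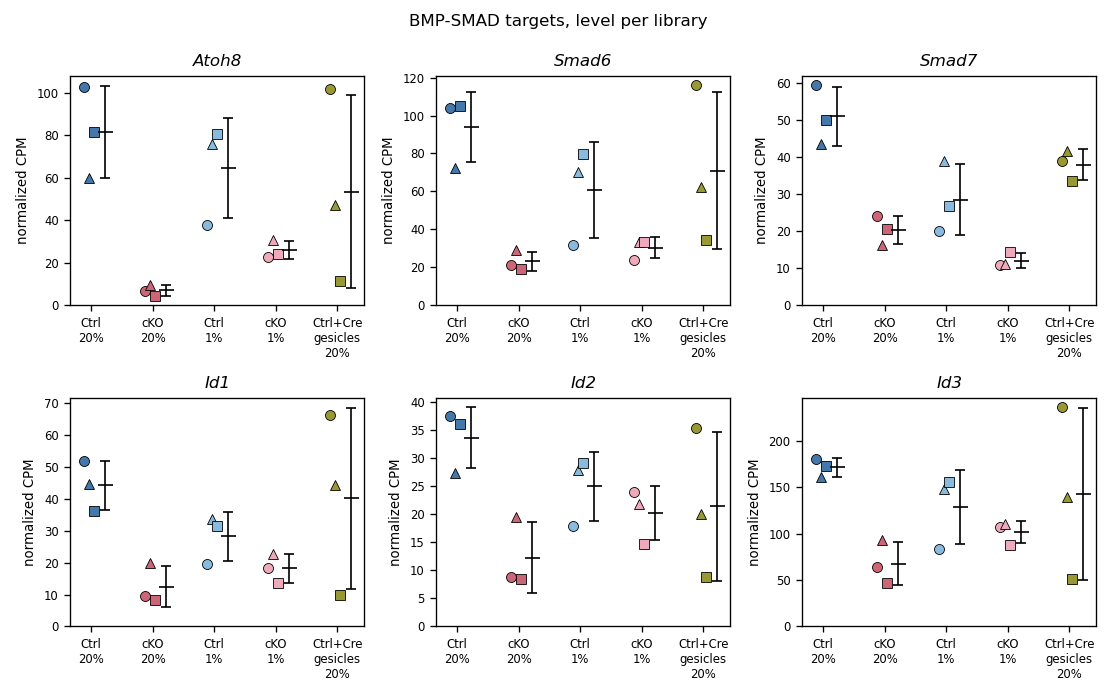
Normalized CPM (y axis) of *Atoh8*, *Smad6*, *Smad7*, *Id1*, *Id2* and *Id3* per library in 5 groups (x axis: Ctrl and cKO in 20% O2, Ctrl and cKO in 1% O2, and Ctrl with Cre gesicles in 20% O2). Circles, triangles and squares are replicates 1, 2 and 3, and bars show the mean ± SD of 3 libraries. For all 6 genes the cKO points in 20% O2 lie below all Ctrl points in 20% O2.

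The ligand genes mostly had higher values in cKO TFs, but none passed the test. Of 14 BMP and GDF ligand genes tested, 0 were called, the median log2 fold change was 0.68, and 6 were higher at an unadjusted p under 0.05 with 0 lower. The list was drawn up by name and family. It includes *Bmp1*, a protease that is also in the list of collagen processing enzymes, and the activin subunit genes *Inhba* and *Inhbb*. The values of 4 did not overlap, all higher in cKO, against 10.1% of all genes. *Bmp4*, a ligand of limb and bone development, was at 0.054, 0.538 and 0.705 CPM in Ctrl and 5.19, 2.27 and 5.03 CPM in cKO TFs, with a log2 fold change of 3.27 with SE 0.81 (edgeR adjusted p = 0.123, DESeq2 adjusted p = 0.00277). All 3 cKO values were above all Ctrl values, and Ctrl replicate 1 was below the level that 3 counts show.

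*Gdf6*, a ligand of joint and tendon formation, was at 0.999, 6.45 and 3.59 CPM in Ctrl and 16.8, 6.27 and 12.9 CPM in cKO TFs, with a log2 fold change of 1.7 (edgeR adjusted p = 0.221). Its groups overlapped through cKO replicate 2. *Bmp2*, which drives bone formation, was at 2.21, 2.54 and 3.47 CPM in Ctrl and 11.1, 5.88 and 4.5 CPM in cKO TFs, a log2 fold change of 1.38 (edgeR adjusted p = 0.318). *Bmp6* was at 20.2 to 37.4 CPM in Ctrl and 31.1 to 54.6 CPM in cKO TFs, with a log2 fold change of 0.8. *Bmp10* and *Gdf2*, ligands of the circulation, were at 0 in all 6 libraries.

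None of the 14 receptors and signalling SMADs tested was called, and their median log2 fold change was -0.14. At an unadjusted p under 0.05, 1 was higher and 1 lower, and 2 were higher and 1 lower without overlap (over all genes, 10.1% and 11.0%). The type I receptor *Bmpr1a* was at 189, 212 and 234 CPM in Ctrl and 240, 115 and 214 CPM in cKO TFs, a log2 fold change of -0.16. The type II receptor *Bmpr2* was at 27.6, 22.3 and 28 CPM in Ctrl and 24.1, 18.7 and 23.2 CPM in cKO TFs (log2 fold change -0.24). In both, the ranges overlapped. *Smad1*, *Smad5* and *Smad4*, the signal carriers and their partner, were at log2 fold changes of -0.11, -0.39 and -0.09. The BMP co-receptor *Rgma* was at 4.13, 4.36 and 3.59 CPM in Ctrl and 9.91, 5.98 and 8.02 CPM in cKO TFs (0.98, edgeR adjusted p = 0.208), and the type I receptor *Acvrl1* at 54.2, 55.9 and 58.5 CPM in Ctrl and 84.1, 61.1 and 67.3 CPM in cKO TFs (0.33, edgeR adjusted p = 0.433), both without overlap. *Smad9* was at 3.1, 2.75 and 4.08 CPM in Ctrl and 1.11, 0.877 and 0.891 CPM in cKO TFs, without overlap, with a log2 fold change of -1.79 (edgeR adjusted p = 0.106, DESeq2 adjusted p = 0.00253). It is also counted in the list of BMP-SMAD targets.

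Over the 14 antagonists tested, the median was -0.14 on the log2 scale. *Nog*, the gene for noggin, which is also counted in the list of BMP-SMAD targets, was at 12.6, 5.41 and 6.32 CPM in Ctrl and 2.68, 2.24 and 2.26 CPM in cKO TFs, with a log2 fold change of -1.76 (edgeR adjusted p = 0.101, DESeq2 adjusted p = 0.00164). Its groups did not overlap. *Grem1* was at 83.2, 88.2 and 112 CPM in Ctrl and 42.1, 82.7 and 33.4 CPM in cKO TFs, with cKO replicate 2 just below the Ctrl range, and a log2 fold change of -0.84 (edgeR adjusted p = 0.327). *Chrd*, *Fstl1* and *Fst*, which bind BMPs or activins, were at -0.08, 0.15 and -0.98.

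In the matrix, decorin and lumican rose while no collagen passed the test. Of the 11 SLRP genes tested, 2 were called higher and 0 lower, and the median log2 fold change was 0.61. At an unadjusted p under 0.05, 6 were higher and 0 lower, and for the same number of genes, 6, the cKO values lay above all Ctrl values, against 10.1% of all genes. The median was 0.57 with the length and GC offsets and 0.67 without cKO replicate 2.

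*Dcn* (ENSMUSG00000019929, chr10:97479609-97518143) encodes decorin, the most abundant SLRP of tendon. It was at 163, 189 and 289 CPM in Ctrl and 749, 987 and 763 CPM in cKO TFs, so that the lowest cKO library was above the highest Ctrl library. The log2 fold change was 1.96 with SE 0.29 (edgeR adjusted p = 0.0233), and the mean level per kilobase of exon rose from 36.6 to 143 CPM. *Dcn* lost its call without Ctrl replicate 1, Ctrl replicate 2, cKO replicate 2 or cKO replicate 3.

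*Lum* (ENSMUSG00000036446, chr10:97565128-97572703), the gene for lumican, lies next to *Dcn*. It was at 1.03, 1.43 and 1.01 CPM in Ctrl and 10.6, 8.17 and 18.9 CPM in cKO TFs, a log2 fold change of 3.44 with SE 0.55 (edgeR adjusted p = 0.0252). Its call was lost without any 1 of the Ctrl replicates or cKO replicate 3. The other SLRPs of the same stretch of chromosome 10, *Kera* (keratocan) and *Epyc* (epiphycan), had 0 to 1 count in each Ctrl library. *Epyc* was at 0.608, 0.361 and 1.26 CPM in cKO TFs, at least 8.47-fold higher than the floor of 3 counts over the Ctrl group (0.0876 CPM), and was not called. *Kera* was at 0.429, 0.284 and 0.251 CPM in cKO TFs, at least 3.67-fold higher on the same floor, and its counts were too low to be tested.

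*Ogn*, the gene for osteoglycin, was at 104, 222 and 137 CPM in Ctrl and 265, 438 and 332 CPM in cKO TFs, with a log2 fold change of 1.16 (edgeR adjusted p = 0.183, DESeq2 adjusted p = 0.0271). Its groups did not overlap. *Omd* (osteomodulin) was at 3.48, 2.75 and 2.15 CPM in Ctrl and 3.72, 6.21 and 6.12 CPM in cKO TFs (0.94, edgeR adjusted p = 0.344), and *Ecm2* at 6.67, 9.41 and 11.7 CPM in Ctrl and 12.6, 15.4 and 14.6 CPM in cKO TFs (0.61, edgeR adjusted p = 0.277), both without overlap. *Aspn* (asporin) was at 334, 262 and 341 CPM in Ctrl and 242, 597 and 433 CPM in cKO TFs (0.44), *Fmod* (fibromodulin) at 795, 738 and 532 CPM in Ctrl and 346, 576 and 755 CPM in cKO TFs (-0.3), and the X-linked *Bgn* (biglycan) at 2420, 1940 and 2280 CPM in Ctrl and 2190, 2550 and 2660 CPM in cKO TFs (0.16). These 3 overlapped between the groups, and *Aspn* turned to -0.01 with the offsets.

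The fibrillar collagens that carry the tensile load of tendon had 0 called genes of 11 tested, with a median log2 fold change of -0.38. That median was -0.01 with the length and GC offsets and -0.21 without cKO replicate 2. *Col1a1* was at 8320, 5000 and 5850 CPM in Ctrl and 3390, 1450 and 3800 CPM in cKO TFs, without overlap, and its log2 fold change of -1.15 with SE 0.48 (edgeR adjusted p = 0.326) was -0.94 with the offsets and -0.84 without cKO replicate 2. *Col1a2*, the partner chain of type I collagen, was at 3040, 3210 and 2600 CPM in Ctrl and 2960, 1460 and 2520 CPM in cKO TFs, and its log2 fold change of -0.35 was -0.01 with the offsets. *Col3a1* was at 3280, 3480 and 3460 CPM in Ctrl and 8240, 2210 and 6030 CPM in cKO TFs, a log2 fold change of 0.69 (edgeR adjusted p = 0.441). In all 3 genes cKO replicate 2 was the lowest library.

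Of the 16 fibril-associated and other collagens tested, 0 were called, with a median of -0.41 (-0.07 without cKO replicate 2). *Col12a1*, which links fibrils in tendon, was nearest to a call, at 480, 161 and 346 CPM in Ctrl and 134, 82.0 and 118 CPM in cKO TFs, without overlap (log2 fold change -1.57, SE 0.34, edgeR adjusted p = 0.0781, DESeq2 adjusted p = 0.000533). Basement membrane genes had the lowest median of the matrix lists, -0.46 over 24 tested with 0 called, which was -0.26 with the offsets and -0.28 without cKO replicate 2. *Col4a1* was at 616, 511 and 649 CPM in Ctrl and 508, 157 and 413 CPM in cKO TFs, and *Col4a2* at 369, 313 and 434 CPM in Ctrl and 336, 104 and 243 CPM in cKO TFs. Their log2 fold changes were -0.72 and -0.71, and again cKO replicate 2 was the lowest.

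Enzymes that process and crosslink collagen had 0 called genes of 26 tested and a median of -0.14. *Lox*, the lysyl oxidase that starts crosslinking, was at 9940, 9210 and 9430 CPM in Ctrl and 7120, 4760 and 6750 CPM in cKO TFs, without overlap, with a log2 fold change of -0.62 (edgeR adjusted p = 0.255). Its relatives *Loxl1*, *Loxl2*, *Loxl3* and *Loxl4* were at log2 fold changes of 0.02, -0.15, -0.45 and -0.86. *P3h2*, a prolyl 3-hydroxylase, was at -0.91, and *Pcolce*, which enhances the removal of the procollagen C-propeptide, at 0.66, with 854, 951 and 908 CPM in Ctrl and 1230, 1730 and 1340 CPM in cKO TFs. Each was called by DESeq2 (adjusted p = 0.0018 for both) and not by edgeR.

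Among 31 proteases and inhibitors tested, 2 were called higher and 0 lower, with a median of 0.05. *Fap* (ENSMUSG00000000392, chr2:62500943-62574075), fibroblast activation protein, a serine protease of the cell surface, was at 0.135, 0.179 and 0.092 CPM in Ctrl and 2.36, 1.13 and 2.22 CPM in cKO TFs, a log2 fold change of 3.77 with SE 0.58 (edgeR adjusted p = 0.0233). The Ctrl values were at 3 to 6 counts per library, near the floor, and the call was lost without any 1 Ctrl replicate or cKO replicate 3. *Mmp2* (ENSMUSG00000031740, chr8:92827291-92853420), gelatinase A, rose from 161, 180 and 143 CPM to 354, 259 and 353 CPM (log2 fold change 0.99, SE 0.15, edgeR adjusted p = 0.0233). It was lost as a call without Ctrl replicate 1 or 3 or cKO replicate 3. The stromelysin *Mmp3* was at 5.78, 15.5 and 2.39 CPM in Ctrl and 31.5, 35.5 and 38.1 CPM in cKO TFs, without overlap, at a log2 fold change of 2.15 (edgeR adjusted p = 0.179). The collagenase *Mmp13* was at 7.29, 10.3 and 2.33 CPM in Ctrl and 18.6, 15.2 and 11.2 CPM in cKO TFs, also without overlap, at 1.17 (edgeR adjusted p = 0.318).

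Of 44 elastic fibre and matricellular genes tested, 0 were called, with a median of 0.02 and a range of -1.87 to 3.0. *Dpt*, the gene for dermatopontin, a small matrix protein of skin and fascia, was at 13.6, 7.02 and 3.16 CPM in Ctrl and 89.8, 42.0 and 58.8 CPM in cKO TFs, without overlap, and had the log2 fold change of 3.0 with SE 0.95 (edgeR adjusted p = 0.214). *Tnc* (tenascin C) was at 486, 301 and 425 CPM in Ctrl and 260, 42.0 and 257 CPM in cKO TFs. Its log2 fold change of -1.12 (edgeR adjusted p = 0.384) was -0.66 without cKO replicate 2. *Postn* (periostin) was at 225, 58.5 and 89.9 CPM in Ctrl and 199, 72.2 and 178 CPM in cKO TFs (log2 fold change 0.26), with wide overlap.

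**Figure D3:**
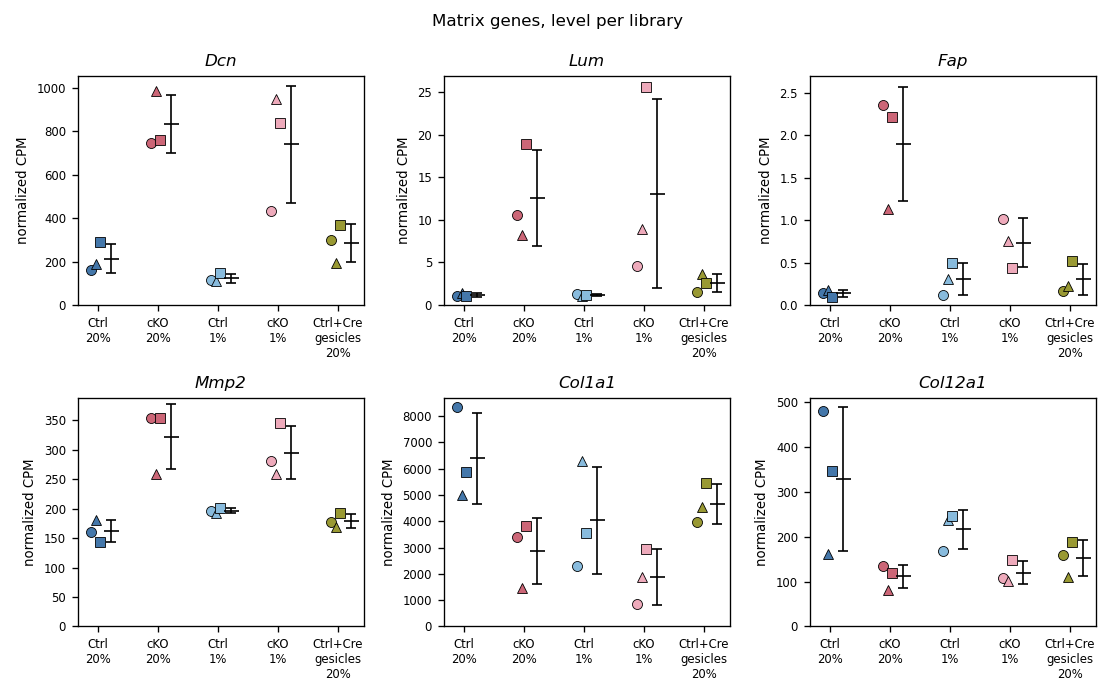
Normalized CPM (y axis) of *Dcn*, *Lum*, *Fap*, *Mmp2*, *Col1a1* and *Col12a1* per library in 5 groups (x axis: Ctrl and cKO in 20% O2, Ctrl and cKO in 1% O2, and Ctrl with Cre gesicles in 20% O2). Circles, triangles and squares are replicates 1, 2 and 3, and bars show the mean ± SD of 3 libraries. In 20% O2 the cKO points of *Dcn*, *Lum*, *Fap* and *Mmp2* lie above all Ctrl points, and those of *Col1a1* and *Col12a1* below them.

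Of the identity lists, the markers of progenitor-like and sheath fibroblasts held most of the called genes, whereas no regulator of the tendon lineage was called. Of 31 progenitor and sheath markers tested, 3 were called higher and 0 lower, 8 were higher at an unadjusted p under 0.05 with 0 lower, and the median log2 fold change was 0.37. The groups did not overlap for 9, all higher in cKO, against 10.1% of all genes.

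*Pi16* (ENSMUSG00000024011, chr17:29317680-29330593), a peptidase inhibitor found on adventitial progenitor-like fibroblasts, was at 42.1, 50.4 and 60.0 CPM in Ctrl and 199, 150 and 175 CPM in cKO TFs, a log2 fold change of 1.78 with SE 0.33 (edgeR adjusted p = 0.0476). *Dpp4* (ENSMUSG00000035000, chr2:62330073-62412231), a surface peptidase that marks the same cells, was at 0.351, 0.687 and 0.46 CPM in Ctrl and 6.19, 2.48 and 2.49 CPM in cKO TFs (2.88, SE 0.53, edgeR adjusted p = 0.0449). Both groups were apart in both genes, but neither call held with any library left out. That of *Pi16* was also lost with *Xist* as a covariate and that of *Dpp4* with the replicate block. The third called marker was *Fap*, given above. *Cd248* (endosialin), also of this list, was at 756, 687 and 751 CPM in Ctrl and 1110, 1110 and 1010 CPM in cKO TFs, without overlap, with a log2 fold change of 0.56, and *Cd34* was at 0.77. Neither was called.

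Of 22 tenogenic regulators and tendon markers tested, 0 were called, with a median of 0.18. At an unadjusted p under 0.05, 4 were higher and 2 lower, and DESeq2 called 0 higher and 1 lower. Without overlap were 4 that were higher and 3 that were lower (over all genes, 10.1% and 11.0%). *Scx*, the defining transcription factor of tendon and the driver of Cre here, was at 16.7, 19.2 and 9.2 CPM in Ctrl and 9.37, 21.7 and 16.2 CPM in cKO TFs, a log2 fold change of 0.07 (edgeR adjusted p = 0.948). *Mkx* (mohawk) was at 15.5, 57.5 and 17.4 CPM in Ctrl and 49.4, 36.6 and 50.4 CPM in cKO TFs (0.59, edgeR adjusted p = 0.547), and the X-linked *Tnmd* (tenomodulin) at 45.2, 37.0 and 41.5 CPM in Ctrl and 41.0, 66.7 and 116 CPM in cKO TFs (0.85, edgeR adjusted p = 0.386). All 3 overlapped between the genotypes, and all 6 libraries expressed them, as the labelled cell type would. *Chodl* had the highest value of the list, 3.07, at 0.567 to 2.63 CPM in Ctrl and 6.22 to 28.7 CPM in cKO TFs (edgeR adjusted p = 0.279). The lowest value was that of *Cilp2*, -1.61 (edgeR adjusted p = 0.128).

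Of 19 osteochondrogenic genes tested, 1 was called higher and 0 lower, with a median of -0.38 and a range of -2.91 to 2.33. DESeq2 called 1 higher and 2 lower, and at an unadjusted p under 0.05, 2 were higher and 4 lower. Without overlap were 1 that was higher and 5 that were lower (over all genes, 10.1% and 11.0%). The called gene was *Osr2* (ENSMUSG00000022330, chr15:35296098-35303305), an odd-skipped transcription factor of joints and connective tissue, at 1.3, 3.41 and 4.6 CPM in Ctrl and 20.5, 14.7 and 11.7 CPM in cKO TFs (log2 fold change 2.33, SE 0.37, edgeR adjusted p = 0.0233). Its call was lost without Ctrl replicate 1 or 2 or cKO replicate 2 or 3. *Runx2*, the master regulator of osteoblasts, was at 18.7, 19.8 and 21.0 CPM in Ctrl and 12.9, 10.2 and 13.1 CPM in cKO TFs, without overlap, at a log2 fold change of -0.72 (edgeR adjusted p = 0.111, DESeq2 adjusted p = 0.00463). *Sox9*, the regulator of cartilage and enthesis cells, was at 32.1, 34.3 and 20.8 CPM in Ctrl and 26.4, 25.0 and 29.9 CPM in cKO TFs (-0.1). *Sp7*, which acts after *Runx2* in osteoblasts, had at most 0.54 CPM in any library. The bone and cartilage matrix genes *Ibsp*, *Dmp1* and *Acan* were at 0 in all 6 libraries.

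Contractile and myofibroblast genes mostly had lower values in cKO TFs, and leiomodin passed the test. Of 22 tested, 1 was called lower and 0 higher, 10 were lower at an unadjusted p under 0.05 with 0 higher, and the median was -0.5. *Lmod1* (ENSMUSG00000048096, chr1:135324807-135368065), leiomodin, an actin nucleator of smooth muscle, fell from 21.2, 12.3 and 22.3 CPM to 6.51, 5.88 and 7.17 CPM (log2 fold change -1.51, SE 0.23, edgeR adjusted p = 0.0233). *Acta2*, smooth muscle actin and the usual myofibroblast marker, was at 2040, 1360 and 2060 CPM in Ctrl and 980, 1700 and 1210 CPM in cKO TFs (-0.49, edgeR adjusted p = 0.343). *Tagln* was at 458, 288 and 371 CPM in Ctrl and 224, 308 and 294 CPM in cKO TFs (-0.43). Both overlapped between the groups. *Myh11*, smooth muscle myosin, was at 37.6, 36.7 and 65.3 CPM in Ctrl and 12.7, 10.7 and 17.7 CPM in cKO TFs, without overlap (-1.76, edgeR adjusted p = 0.0505, DESeq2 adjusted p = 4.21e-05).

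Markers of mural cells, the contractile cells of small vessels, had a lower summed level in cKO TFs. *Myh11*, given above, is in both the mural and the contractile list, so the 2 lists are not separate. Of the mural markers tested, 3 were without overlap and lower in cKO TFs and 0 were higher (over all genes, 11.0% and 10.1%). Of 9 mural markers, 8 were tested and 0 called, their summed level was 104 to 181 CPM in the Ctrl libraries and 43.0 to 59.8 CPM in the cKO libraries, and *Higd1b* was at 0. *Cspg4* (NG2) was at 74.5, 41.7 and 69.1 CPM in Ctrl and 19.8, 12 and 13.9 CPM in cKO TFs (log2 fold change -2.02, edgeR adjusted p = 0.0991), and *Rgs5* at 14.2, 9.17 and 11.1 CPM in Ctrl and 4.86, 6.91 and 6.44 CPM in cKO TFs (-0.92, edgeR adjusted p = 0.0728). The part of mural cells in the contractile genes and in other genes lower in cKO was not tested. Skeletal muscle markers summed to 24.7 to 48.4 CPM in Ctrl and 12.5 to 18.2 CPM in cKO TFs. That difference was carried by *Acta1*, skeletal actin, at 42.1, 22.3 and 28.3 CPM in Ctrl and 9.3, 15.2 and 13.6 CPM in cKO TFs (called, -1.28, SE 0.24, edgeR adjusted p = 0.0449), while the defining markers *Myf5*, *Pax7*, *Myog*, *Myh3* and *Ckm* were at 0.

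The summed levels of endothelial, leukocyte, Schwann, keratinocyte and adipocyte markers overlapped between the genotypes, and none of their members was called by edgeR. Summed endothelial markers were at 30.6 to 47.3 CPM in Ctrl and 40.1 to 77.8 CPM in cKO TFs, mostly *Tek* (27.2, 38.6 and 45.4 CPM against 76.3, 37.5 and 47.8 CPM), with 2 of 10 tested and *Tie1* and *Cldn5* at 0. Macrophage and leukocyte markers summed to 13.1 to 20.5 and 10.7 to 25.0 CPM, with 3 of 10 tested, *Lyz2* the largest part of the sum (8.55 to 21.8 CPM) and *Adgre1*, *Tyrobp* and *Cd3e* at 0. Schwann and nerve markers summed to 86.3 to 200 and 123 to 177 CPM, with 6 of 9 tested, mostly *Ncam1* (73.1 to 185 CPM). The median log2 fold change of the 6 was 0.83 (0.6 without cKO replicate 2), and 3 of the 6 were without overlap and higher in cKO TFs (over all genes, 10.1%). The glial transcription factor *Sox10* was at 0, 0.149 and 0 CPM in Ctrl and 0.286, 0.541 and 0.16 CPM in cKO TFs (2.66, edgeR adjusted p = 0.273). The Schwann cell cadherin *Cdh19* was at 0, 0.149 and 0 CPM in Ctrl and 0.501, 0.206 and 0.411 CPM in cKO TFs (2.83, edgeR adjusted p = 0.327). The part of these levels in the other results was not tested. Keratinocyte markers summed to 24.0 to 34.4 and 17.6 to 26.3 CPM, with 3 of 9 tested, *Dsp* the largest part and *Krt14* and *Krt1* at 0, and adipocyte markers to 33.8 to 50.9 and 34.4 to 56.6 CPM, with 4 of 8 tested, *Lpl* the largest part and *Adipoq*, *Cfd* and *Retn* at 0. Of the adipocyte list, *Pparg* was at 13.2, 12.2 and 11.6 CPM in Ctrl and 4.29, 8.64 and 5.44 CPM in cKO TFs, without overlap (-1.01, edgeR adjusted p = 0.136, DESeq2 adjusted p = 0.00794).

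**Figure D4:**
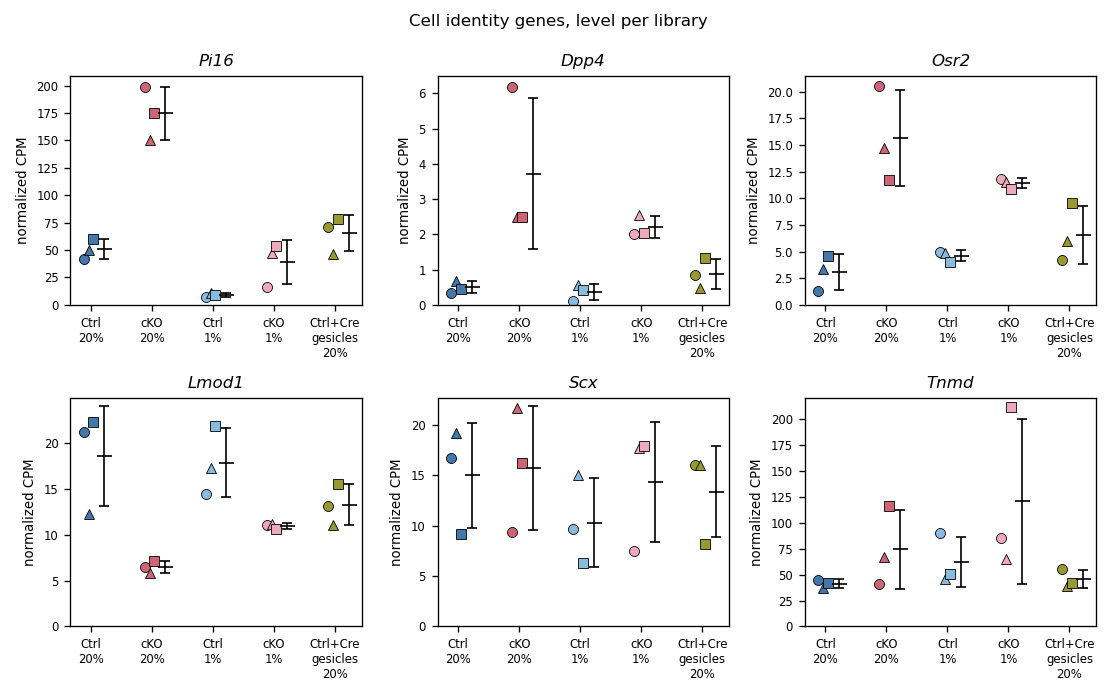
Normalized CPM (y axis) of *Pi16*, *Dpp4*, *Osr2*, *Lmod1*, *Scx* and *Tnmd* per library in 5 groups (x axis: Ctrl and cKO in 20% O2, Ctrl and cKO in 1% O2, and Ctrl with Cre gesicles in 20% O2). Circles, triangles and squares are replicates 1, 2 and 3, and bars show the mean ± SD of 3 libraries. In 20% O2 the cKO points of *Pi16*, *Dpp4* and *Osr2* lie above and those of *Lmod1* below all Ctrl points, while those of *Scx* and *Tnmd* overlap.

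HOX genes record where along the body axis a fibroblast came from, and 25 of the 39 listed were expressed enough to be tested. None was called, and their median log2 fold change was -0.22. Without overlap were 2 that were higher and 7 that were lower in cKO TFs (over all genes, 10.1% and 11.0%), and an unadjusted p under 0.05 was reached by 1 higher and 2 lower. *Hoxc13* was at 59.0, 48.7 and 61.3 CPM in Ctrl and 28.5, 24.5 and 34.1 CPM in cKO TFs (-0.96, edgeR adjusted p = 0.075, DESeq2 adjusted p = 0.00119), and *Hoxb13* at 79.6, 62.1 and 91.6 CPM in Ctrl and 157, 104 and 122 CPM in cKO TFs (0.71, edgeR adjusted p = 0.231). Both were without overlap. *Hoxb1*, *Hoxd1*, *Hoxd3*, *Hoxd4* and *Hoxd12* were at 0.

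In 20% O2 the hypoxia response genes, the best known targets of HIF-1α, had 0 called genes of 31 tested and a median of 0.07. At an unadjusted p under 0.05, 1 was higher and 4 were lower. Without overlap were 2 that were higher and 5 that were lower (over all genes, 10.1% and 11.0%). The glucose transporter *Slc2a1* and the glycolytic enzyme *Pgk1* were at log2 fold changes of -0.01 and 0.16. *Vegfa*, the vascular growth factor, was at 119, 96.9 and 171 CPM in Ctrl and 70.7, 51.5 and 58.1 CPM in cKO TFs, without overlap (-1.1, edgeR adjusted p = 0.0689, DESeq2 adjusted p = 0.000876). *Adm*, adrenomedullin, went the other way in level (0.72, edgeR adjusted p = 0.151, DESeq2 adjusted p = 0.0265).

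Other autosomal genes that rose are given next, and no theme over them was tested. *H19*, an imprinted long non-coding RNA that is high in the embryo, was at 0.081, 0.0896 and 0.215 CPM in Ctrl and 1.04, 2.01 and 3.17 CPM in cKO TFs, the highest log2 fold change of all called genes (4.0, SE 0.59, edgeR adjusted p = 0.0233). Its Ctrl values were at 3 to 7 counts per library, and it overlaps *Mir675* on its own strand. *Igfbp3*, which binds insulin-like growth factors, was at 21.1, 29.1 and 19.1 CPM in Ctrl and 93.2, 50.1 and 120 CPM in cKO TFs (1.93, SE 0.33, edgeR adjusted p = 0.0348). *Adora2b*, an adenosine receptor, was at 3.21, 6.22 and 3.04 CPM in Ctrl and 11.6, 13.8 and 12.2 CPM in cKO TFs (1.59, edgeR adjusted p = 0.0408).

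*Entpd2*, an ectonucleotidase that breaks down extracellular ATP, was at 4.18, 7.5 and 6.29 CPM in Ctrl and 15.7, 17.2 and 14.8 CPM in cKO TFs (1.41, edgeR adjusted p = 0.0267). *Rab3il1*, an exchange factor for Rab proteins, was at 16.4, 23.5 and 20.9 CPM in Ctrl and 51.8, 64.3 and 60.7 CPM in cKO TFs (1.54, edgeR adjusted p = 0.0142). *Hic1*, a transcriptional repressor that marks quiescent mesenchymal progenitors, was at 18.2, 16.7 and 17.3 CPM in Ctrl and 39.5, 28.7 and 45.4 CPM in cKO TFs (1.12, edgeR adjusted p = 0.0312). Also called higher were *Efhd1* (1.51), *Syt13* (1.42), *Spry2* (1.34), *C1qtnf2* (1.17), *Serping1* (1.06), which inhibits the first component of complement, *Casp12* (0.95), a caspase of the endoplasmic reticulum, and *Slc27a3* (0.89). None of these had overlapping groups.

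Other autosomal genes that fell are given likewise, with no theme tested. *Plxnc1*, a semaphorin receptor, was at 4.37, 2.3 and 3.04 CPM in Ctrl and 0.644, 0.103 and 0.365 CPM in cKO TFs (-3.16, SE 0.55, edgeR adjusted p = 0.0408). *Adra2a*, an adrenergic receptor, was at 9.26, 3.53 and 6.75 CPM in Ctrl and 0.393, 0.851 and 1.07 CPM in cKO TFs (-3.04, SE 0.43, edgeR adjusted p = 0.0233). *Fgfr3*, a fibroblast growth factor receptor of growth cartilage, was at 13.5, 5.77 and 9.69 CPM in Ctrl and 2.25, 1.83 and 1.28 CPM in cKO TFs (-2.44, SE 0.43, edgeR adjusted p = 0.0408). All 3 receptors had cKO values under those of every Ctrl library.

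*Cyp26b1*, which degrades retinoic acid, was at 25.7, 6.42 and 11.6 CPM in Ctrl and 1.97, 2.17 and 2.49 CPM in cKO TFs (-2.72, SE 0.44, edgeR adjusted p = 0.0267). *Dhrs9*, a retinol dehydrogenase, was at 53.2, 46.8 and 46.9 CPM in Ctrl and 15.8, 14.2 and 16.1 CPM in cKO TFs (-1.67, edgeR adjusted p = 0.0408). *Ptgs2*, the inducible cyclooxygenase, was at 210, 173 and 147 CPM in Ctrl and 74.4, 73.0 and 93.3 CPM in cKO TFs (-1.14, SE 0.17, edgeR adjusted p = 0.0233). The prostaglandin E receptor gene *Ptger1* was at 8.23, 6.3 and 9.75 CPM in Ctrl and 2.72, 1.8 and 1.76 CPM in cKO TFs (-1.96, edgeR adjusted p = 0.0233). No source used here says that the counting took strand into account, so reads from its other strand may be part of these counts.

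Among the rest, *Tspan18*, a tetraspanin, was at 2.4, 1.49 and 0.951 CPM in Ctrl and 0.358, 0.18 and 0.274 CPM in cKO TFs (-2.58), *Tppp*, a tubulin-binding protein, at 4.51, 1.7 and 4.69 CPM in Ctrl and 0.644, 0.619 and 0.64 CPM in cKO TFs (-2.51), and *Susd4*, a complement regulator, at 7.91, 4.75 and 7.48 CPM in Ctrl and 1.9, 2.14 and 1.16 CPM in cKO TFs (-1.96). *Rgs4*, which shortens G protein signals, was at 410, 237 and 383 CPM in Ctrl and 86.2, 140 and 64.6 CPM in cKO TFs (-1.83, edgeR adjusted p = 0.0312). *Myoc* (myocilin) was at 138, 80.8 and 127 CPM in Ctrl and 29.5, 36.7 and 32.1 CPM in cKO TFs (-1.81), *Rrm2*, which makes deoxynucleotides for DNA synthesis, at 573, 380 and 332 CPM in Ctrl and 149, 164 and 194 CPM in cKO TFs (-1.34), and *Peli2*, a ubiquitin ligase of innate immune signalling, at 101, 68.5 and 111 CPM in Ctrl and 37.3, 30.1 and 27.8 CPM in cKO TFs (-1.56, edgeR adjusted p = 0.00841). In each of these the groups were apart. Also called lower were *Ldb3* (-1.6), *Slc6a17* (-1.59), *Tspan2* (-1.32), *Dlx2* (-1.25), a homeobox gene, *Adamts6* (-1.04), *Pxdc1* (-0.98), *Rassf5* (-0.88), *Eml1* (-0.83), *Eef1aknmt* (-0.8), *Clcf1* (-0.76) and *Prkar2a* (-0.69). The 3 called genes of the X chromosome, *Xpnpep2* (2.48), *Gpm6b* (1.48) and *Tspan7* (1.43), were higher in cKO TFs.

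The libraries in 1% O2 were other libraries of the same 2 genotypes and, by the methods, not a separate set of mice. Any difference between the mice of the 2 groups could recur in them, so like values in 1% O2 are no independent repeat. There, 6 of 15850 genes were called between cKO and Ctrl TFs (0.0379%), and 4 of these were among the 55 called in 20% O2: *Dcn*, *Efhd1*, *Ptgs2* and *Prkar2a*. The 55 genes were chosen by their values in 20% O2, so that smaller differences in 1% O2 have no test here. In 1% O2 all 55 had the same sign, 44 had groups that did not overlap in the same direction (over all genes, 11.9% were without overlap with higher and 15.5% with lower values in cKO), and 46 had a smaller difference. The median size of the log2 fold change over the 55 was 1.56 in 20% O2 and 0.94 in 1% O2. The library labelled cKO replicate 1 in 1% O2 stood apart, with 6857558 counts against 34020745 to 39782214 in the other 5 and 0 counts of Cre and eGFP. Without it, 6 genes were called, 4 of them among the 55 (*Dcn*, *Efhd1*, *Lum* and *Pi16*), while *Ptgs2* and *Prkar2a* lost their calls. Then 45 of the 55 had a smaller difference than in 20% O2, and the median size was 0.89. *Dcn* was at 113, 110 and 148 CPM in Ctrl and 435, 949 and 837 CPM in cKO TFs in 1% O2 (2.58, edgeR adjusted p = 0.0171), *Lum* at 1.29, 1.06 and 1.2 CPM in Ctrl and 4.61, 8.96 and 25.7 CPM in cKO TFs (3.49, edgeR adjusted p = 0.0576), and *Pi16* at 7.23, 10.8 and 8.8 CPM in Ctrl and 16.3, 47.6 and 53.8 CPM in cKO TFs (2.15, edgeR adjusted p = 0.0576). In these 3 genes the genotypes were without overlap at both O2 levels, and cKO replicate 1 was the lowest cKO library in 1% O2. Without it the log2 fold changes were 2.87, 3.88 and 2.52 (edgeR adjusted p = 0.00154, 0.0236 and 0.00154).

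Differences in BMP targets were smaller in 1% O2 by their values. *Atoh8* was at 37.5, 76.1 and 80.5 CPM in Ctrl and 22.5, 30.7 and 24.2 CPM in cKO TFs (-1.32, edgeR adjusted p = 0.191), *Smad6* at 31.8, 70.1 and 79.7 CPM in Ctrl and 23.8, 33.4 and 33.3 CPM in cKO TFs (-1.0, edgeR adjusted p = 0.207), and *Id1* at 19.6, 33.8 and 31.4 CPM in Ctrl and 18.4, 22.6 and 13.5 CPM in cKO TFs (-0.64, edgeR adjusted p = 0.337). Of these, *Smad6* and *Id1* overlapped between the genotypes. The median of the 25 targets was -0.54 in 1% O2 (-0.61 without cKO replicate 1) against -1.02 in 20% O2. The difference between the O2 levels was tested as an interaction of genotype and O2, and 0 of 15850 genes passed (0.0%) in edgeR, where 367 had an unadjusted p under 0.05, 0 passed with the replicate block, 0 without cKO replicate 1 in 1% O2 (505 at an unadjusted p under 0.05), and DESeq2 called 2, *Atoh8* and *Serpine2*. For *Atoh8* the interaction was -2.26 on the log2 scale (SE 0.47, edgeR adjusted p = 1.0), so a weaker decrease in 1% O2 was not shown by edgeR. These fits had no term for the mouse, so the O2 levels were not paired. A gene that did not pass is therefore not shown to lack an interaction.

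Ctrl TFs given Cre by gesicles in 20% O2 shared the Ctrl libraries of the comparison above, and their values are set beside it with no further comparison. Against untreated Ctrl TFs, 4 of 16174 genes were called (0.0247%): *Tapbp*, *Tap2*, *H2-K1* and *H2-D1*, all of antigen presentation. An unadjusted p under 0.05 was reached by 594. *Atoh8* was at 102, 47.0 and 11.3 CPM with gesicles (log2 fold change -0.6), *Smad6* at 116, 62.4 and 34.5 CPM (-0.39), *Id1* at 66.3, 44.2 and 9.88 CPM, *Dcn* at 299, 195 and 369 CPM (0.44) and *Lum* at 1.51, 3.67 and 2.58 CPM (1.17). The adjusted p of the 4 genes given with a log2 fold change was 1.0 in edgeR, and in *Atoh8*, *Smad6* and *Id1* replicate 3 was the lowest library. The median of the BMP-SMAD targets was -0.26.

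**Figure D5:**
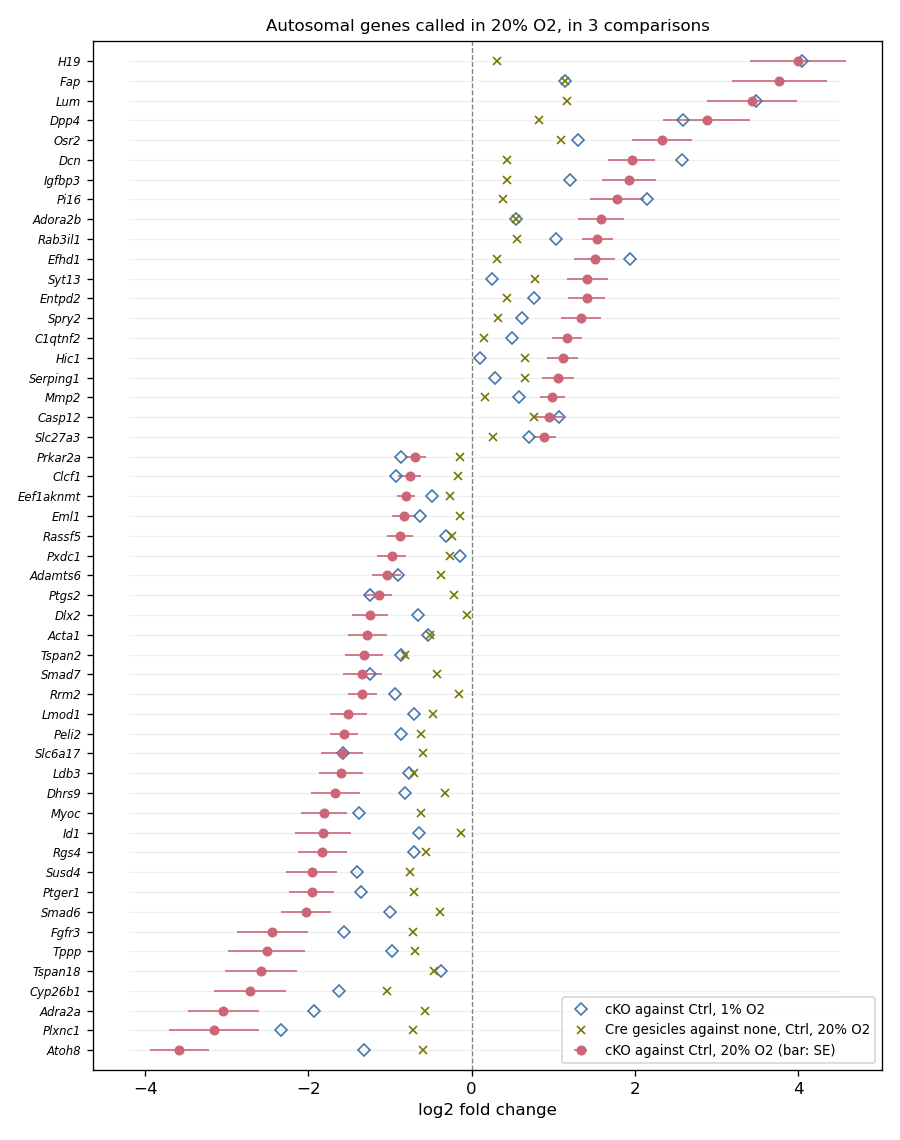
Log2 fold changes (x axis) of 51 of the 52 autosomal genes called in cKO against Ctrl TFs in 20% O2 (y axis), for that comparison with its SE as a bar, for cKO against Ctrl TFs in 1% O2, and for gesicle-treated against untreated Ctrl TFs in 20% O2. The genes run from *H19* at 4.0 to *Atoh8* at -3.58, and the first and the last comparison share the Ctrl libraries.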

How the data were processed

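Poly-A RNA-seq libraries were made from tail TFs, 3 per group, and the groups were taken from the sample titles. The authors trimmed reads with cutadapt, aligned them to GRCm38 by STAR and derived estimated gene counts by RSEM 1.3.3, with FastQC 0.11.8 and MultiQC 1.20 for quality control. They deposited these estimated counts as whole numbers, without normalization, in 55491 rows, 4 of which are transgenes. RSEM shares reads among similar sequences, so near-identical copies are less certain.

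Counts were filtered with filterByExpr, scaled by TMM and tested with edgeR 4.0.16 (quasi-likelihood, Benjamini-Hochberg) in a single model of 12 libraries (Ctrl and cKO in 20% and 1% O2) without a block, in which the 4 groups shared 1 estimate of the spread. The model treated these 12 libraries as independent. By the methods the libraries in 1% O2 are not a separate set of mice, and no term for the mouse was fitted. A fit of the 6 libraries in 20% O2 alone called 1 gene, but it also estimated the spread from fewer libraries. What the missing term by itself does to the calls was not tested. Gesicle values came from a fit of all 18 libraries. SE was taken as the size of the log2 fold change over the root of the F statistic. Gene positions and lengths came from GENCODE M21, which covered 99.92% of genes tested. Alternatives were DESeq2 1.42.0 (the tool of the study), limma 3.58.1 voom, other filters, scalings and sample sets, the replicate block, *Xist* as a covariate, thinned counts, offsets for GC content and length, and each library left out. DESeq2 and the block for 1% O2 were chosen after the data were seen. R 4.3.3, Python 3.11.15 and pandas 2.3.3 were used, and the fits were checked on simulated counts.

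Gene lists and named genes were chosen with earlier results of these data known. Named by rule were *Hif1a*, every called gene, the defining members of each list and the highest marker of each other cell type. All other genes were named after their values were seen. Of the called genes, 1 is not reported here or shown in the plots. Replicates came from separate mice by the methods, and the labels do not say which libraries share a mouse. The labels and the methods differ in serum and coating, which was not used.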

Additional observations from a re-analysis of the deposited data

Results flagged for a closer look

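Transcripts of the Cre transgene were counted in all 3 cKO libraries in 20% O2, with 1, 5 and 4 counts in replicates 1 to 3, and in 0 of the 3 Ctrl libraries. Those of eGFP were at 2, 5 and 1 counts in the same cKO libraries and at 0 in Ctrl. These rows are outside the genes tested, and the counts are near or under the floor of 3 counts in 3 of these 6 values.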

How the results depend on the processing

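The number of genes called depended on the processing. None of the 55 called genes changed sign under any alternative run. They were chosen for their differences in these same libraries, and the groups of all 55 did not overlap, so this is no test of their direction. In the order of all genes called, autosomal genes higher and autosomal genes lower, against 55, 20 and 32, the counts were 1, 0 and 1 in a fit of the 6 libraries in 20% O2 alone, where the gene was *Dhrs9*, and 1, 0 and 1 in a test against a fold change of 1.5, where it was *Atoh8*. They were 443, 151 and 274 with DESeq2, 475, 175 and 282 with DESeq2 and the replicate block, 1585, 525 and 990 with limma voom and quality weights, and 281, 92 and 175 without a filter on low counts. They were 131, 51 and 75 with the GC and length offsets, 131, 55 and 69 with the offsets and the replicate block, and 87 and 38 (all genes and higher) with all 18 libraries. Leaving out 1 library gave 1 to 154, 0 to 36 and 1 to 105. Other counts of all genes, with those shared with the 55, were 58 (54) with RLE size factors, 57 (53) with CPM above 1 in at least 3 libraries, 57 (42) with *Xist* as a covariate and 51 (50) with counts thinned to the smallest library. With *Xist*, *Smad7*, *Id1*, *Pi16*, *Igfbp3*, *Adora2b*, *Dhrs9* and *Tppp* were among the calls lost. DESeq2 called 2 genes for the interaction and 302 in 1% O2, where edgeR with the replicate block called 2. Without cKO replicate 1 in 1% O2, an alternative chosen after seeing the data, edgeR called 0 and 6. The cause of these differences was not tested.

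Ctrl and cKO libraries with the same replicate number came from different mice, and their deviations were not alike (correlations -0.158, -0.0434 and -0.113, with a mean of -0.105 against 0.0527 for different numbers). With the replicate number as a block, edgeR called 64 genes, 39 of them among the 55. Of the genes with levels per library above, *Smad7*, *Dpp4*, *Acta1*, *Igfbp3*, *Fgfr3*, *Plxnc1* and *Rgs4* lost their calls. So did *Spry2*, *Casp12*, *Serping1*, *Dlx2*, *Adamts6*, *Rassf5*, *Eml1*, *Clcf1* and *Prkar2a*, given above by fold change alone.

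Each of the called genes kept its call in 6 to 13 of 14 alternatives other than left-out libraries, *Atoh8* in 13. List medians moved as follows: HOX genes to -0.12 with the CPM filter, hypoxia genes to 0.01 with the block, -0.0013 with DESeq2 and the block, and -0.01 with voom. With the offsets, fibrillar collagens moved to -0.01, proteases to 0.19 and osteochondrogenic genes to -0.21, and with offsets and block, collagen processing enzymes to -0.03 and proteases to 0.15. With *Xist*, proteases moved to 0.14 and BMP-SMAD targets to -0.87. With voom, SLRPs moved to 0.78, proteases to 0.14, elastic fibre and matricellular genes to 0.2, tenogenic genes to 0.44 and progenitor markers to 0.22. Genes that were not called changed sign: *Loxl1* to -0.0015 with DESeq2 and the block and -0.01 with *Xist*, *Scx* to -0.03 with the offsets, with or without the block, and -0.18 with *Xist*, *Aspn* to -0.01 with the offsets and -0.02 with offsets and block, *Bmpr2* to 0.06 with the offsets, with or without the block, *Lyz2* to -0.01 with offsets and block, *Ncam1* to 0.12, 0.18 and 0.17 with offsets, offsets and block, and voom, and *Bmpr1a* to 0.05 with voom.

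With 1 library left out, log2 fold changes ranged from -0.37 to 0.09 for *Bmpr1a*, -0.01 to 0.25 for *Hif1a*, -0.09 to 0.13 for *Loxl1*, -0.25 to 0.01 for *Loxl2*, -0.46 to 0.11 for *Ncam1*, -0.08 to 1.01 for *Postn*, -0.24 to 0.33 for *Scx* and -0.3 to 0.03 for *Sox9*. List medians then ranged from 0.43 to 0.81 for BMP ligands, -1.12 to -0.85 for BMP-SMAD targets, -0.29 to -0.09 for HOX genes, -0.94 to -0.28 for basement membrane, -0.69 to -0.39 for contractile genes, -0.76 to -0.07 for fibril-associated collagens, -0.85 to -0.21 for fibrillar collagens, -0.06 to 0.13 for hypoxia genes, -0.0022 to 0.14 for proteases, -0.51 to -0.14 for osteochondrogenic genes, 0.57 to 0.78 for SLRPs and 0.09 to 0.5 for tenogenic genes.

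With 3 mice per genotype, an uneven split of the sexes, a mixed strain background and 1 cKO library with fewer counts on long genes, a gene that misses the threshold is not shown to be alike in both genotypes. Genes near 0.0698 to 0.111 CPM, such as *Fap*, *H19*, *Epyc* and *Kera* in Ctrl, are limited by depth, and their fold changes depend on a few counts. *Hif1a* was not lower in the libraries labelled cKO.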

Other observations

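Some called genes were neighbours, and these pairs were chosen after their values were seen, as called genes within 1000000 bases of each other. *Fap* and *Dpp4*, both higher in cKO TFs and both coding for surface peptidases of the same family, lay 88712 bases apart on chromosome 2, and the adjoining *Ifih1*, *Gca* and *Kcnh7* had log2 fold changes of -1.4 (edgeR adjusted p = 0.356), 0.29 and 0.08 and were not called. *Dcn* and *Lum*, both higher, lay 46985 bases apart on chromosome 10. *Eef1aknmt* and *Myoc*, both lower, lay 90604 bases apart on chromosome 1, with *Vamp4* (-0.12, not called) between them. *Syt13* and *Tspan18*, 245702 bases apart on chromosome 2, went in opposite directions, higher and lower, and *Prdm11* (-0.34) and *Trp53i11* (0.07) between them were not called. No test of neighbourhood was made.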
